A study of Mus musculus with 11 samples.

Results

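A block of 4 genes on mouse chromosome 14, *Plac9a*, *Tmem254a*, *Cphx1* and *Duxbl1*, was described together with its flanks *Anxa11* and *Slmap*, the tested genes that come just before and just after it in the gene order of GRCm38. These 6 genes, of 18667 listed, were chosen by their values in the libraries analysed here, in which the block genes differed between *Atf6*+/+ and *Atf6*-/- cochleae and the flanks did not stand out. Their levels and fold changes are therefore given as a description with no test, and tests were kept to other genes and to the variation within each genotype. All 6 members passed the filter on low values, a mean of at least 0.1 FPKM (fragments per kilobase of transcript, scaled by the fragments mapped in the library) over the libraries, which left 16169 genes. *Cphx1* was the nearest to that limit, and its mean was above it in either genotype.

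The study asked how loss of ATF6, a sensor of endoplasmic reticulum stress, affects hearing in mice. RNA was sequenced from whole cochleae of mice aged 2 months, with 1 library per individual cochlea, 5 from *Atf6*+/+ and 6 from *Atf6*-/- mice. In the *Atf6*-/- mice exon 4 of *Atf6* holds a premature stop codon, and the methods name their controls as *Atf6*+/+ littermates. Females and males were used in the study. Both genotypes were kept on C57BL/6J, so both carry the *Cdh23* ahl allele of early hearing loss. Nothing in the sources used here says whether any libraries share an animal, so p-values measure the spread between these libraries. Read counts were not used here, and the methods give 1 depth for all libraries and not the reads behind each value; the FPKM of all genes added up to 474616 in the lowest *Atf6*+/+ library and 537926 in the highest, and to 462005 and 502419 for *Atf6*-/-.

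Near-identical neighbouring genes arise by tandem duplication of a stretch of chromosome, and reads from one copy cannot always be told from those of another. *Cphx1* and *Duxbl1* encode homeodomain proteins of families best known from oocytes, early embryos and the germ line, *Plac9a* encodes a small secreted protein first described in placenta, and *Tmem254a* encodes a small membrane protein. *Anxa11* encodes a calcium-dependent phospholipid-binding annexin, and *Slmap* a tail-anchored membrane protein that is a subunit of the STRIPAK phosphatase complex.

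The targeted gene was looked at first. *Atf6* (gene 226641, on chromosome 1) was at 10.4, 9.99, 10.6, 8.39 and 8.25 FPKM in *Atf6*+/+ replicates 1 to 5, and at a lowest of 3.83, a median of 4.23 and a highest of 4.59 FPKM in the *Atf6*-/- libraries. The *Atf6*-/- values all lay under the lowest *Atf6*+/+ value. The log2 fold change, *Atf6*-/- over *Atf6*+/+ on the scale of log2(FPKM + 0.1) as for every fold change here, was -1.13 (limma adjusted p = 5.17e-05), and none of the 11 libraries went against its label.

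The cochlear markers named next were present in every library, at uneven levels. *Coch*, the cochlin of spiral ligament fibrocytes and the most abundant gene of the otic mesenchyme list, averaged 2755 FPKM over the libraries, *Ocm* of outer hair cells 55.9, *Gjb6* of supporting cells 217 and *Atp1b2*, listed for the stria vascularis, 248. *Hba-a1* of red blood cells averaged 5085 FPKM and *Bglap* of osteoblasts 264, so blood and bone RNA was in the libraries too. Single libraries differed: *Ocm* ran from 16.9 to 49.8 FPKM in *Atf6*+/+ and from 35.2 to 106 FPKM in *Atf6*-/- libraries. The mean log2 value of the stria vascularis markers was 2.87 in *Atf6*+/+ replicate 4, against a median of 5.10 over the *Atf6*+/+ libraries.

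*Tmem254a* (gene 66039) was at 8.70, 7.97, 6.94, 7.65 and 7.50 FPKM in *Atf6*+/+ replicates 1 to 5. In the *Atf6*-/- libraries it had a lowest value of 22.4, a median of 27.9 and a highest of 30.4 FPKM. The *Atf6*+/+ values lay close together and every *Atf6*-/- library was above all of them, the lowest *Atf6*-/- value being 2.58 times the highest *Atf6*+/+ value. The means were 7.75 ± 0.648 (SD, n = 5) and 27.2 ± 3.33 FPKM (SD, n = 6), 3.50 times apart, and the log2 fold change was 1.79.

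*Duxbl1* (gene 278672), a homeobox gene, was the less abundant neighbour that moved by a like amount. It was at 1.59, 1.90, 1.52, 1.22 and 1.68 FPKM in *Atf6*+/+ replicates 1 to 5, and between 4.44 and 5.59 FPKM in the *Atf6*-/- libraries, with a median of 5.21. The groups did not overlap, and the lowest *Atf6*-/- value was 2.34 times the highest *Atf6*+/+ value. The means were 1.58 ± 0.248 (SD, n = 5) and 5.08 ± 0.457 FPKM (SD, n = 6), and the log2 fold change was 1.63.

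*Plac9a* (gene 211623) was at 3.85, 5.61, 6.07, 9.57 and 9.43 FPKM in *Atf6*+/+ replicates 1 to 5. Its *Atf6*-/- values ran from 16.2 through a median of 21.4 to 27.9 FPKM. *Plac9a* varied more within a genotype than *Tmem254a* did: its highest *Atf6*+/+ value was 2.49 times its lowest, against 1.25 times for *Tmem254a*. Even so the groups did not overlap, and the lowest *Atf6*-/- value was 1.69 times the highest *Atf6*+/+ value. The means were 6.91 ± 2.51 (SD, n = 5) and 21.6 ± 4.25 FPKM (SD, n = 6), and the log2 fold change was 1.68.

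*Cphx1* (gene 105594), the other homeobox gene, was close to the lowest values that 2 decimals can carry. It was at 0.03, 0.16, 0.11, 0.19 and 0.08 FPKM in *Atf6*+/+ replicates 1 to 5, and at a lowest of 0.16, a median of 0.25 and a highest of 0.42 FPKM in the *Atf6*-/- libraries. Here the groups overlapped: *Atf6*-/- replicate 3, at 0.16 FPKM, was level with *Atf6*+/+ replicate 2 and below *Atf6*+/+ replicate 4. The means were 0.114 ± 0.0635 (SD, n = 5) and 0.282 ± 0.108 FPKM (SD, n = 6), 2.47 times apart. Its log2 fold change of 0.84 depended on the pseudocount, with 0.20 after adding 1 FPKM and 1.35 after adding 0.01 FPKM.

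*Anxa11* (gene 11744) was at 25.8, 27.5, 29.4, 30.3 and 31.4 FPKM in *Atf6*+/+ replicates 1 to 5, and between 26.4 and 29.4 FPKM in the *Atf6*-/- libraries, with a median of 27.6. Every *Atf6*-/- value fell inside the *Atf6*+/+ range. The means were 28.9 ± 2.23 (SD, n = 5) and 27.7 ± 1.14 FPKM (SD, n = 6), and the log2 fold change was -0.06.

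*Slmap* (gene 83997) was at 19.99, 19.2, 18.6, 16.0 and 18.1 FPKM in *Atf6*+/+ replicates 1 to 5, and between 16.7 and 19.7 FPKM in the *Atf6*-/- libraries, with a median of 17.6. The *Atf6*-/- values again fell inside the *Atf6*+/+ range. The means were 18.4 ± 1.499 (SD, n = 5) and 18.0 ± 1.24 FPKM (SD, n = 6), and the log2 fold change was -0.03, beside a median of -0.01 over all genes tested. After rescaling to TPM the mean of the 2 flanks went from -0.04 to 0.01, so no direction is given for them.

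**Figure D1:**
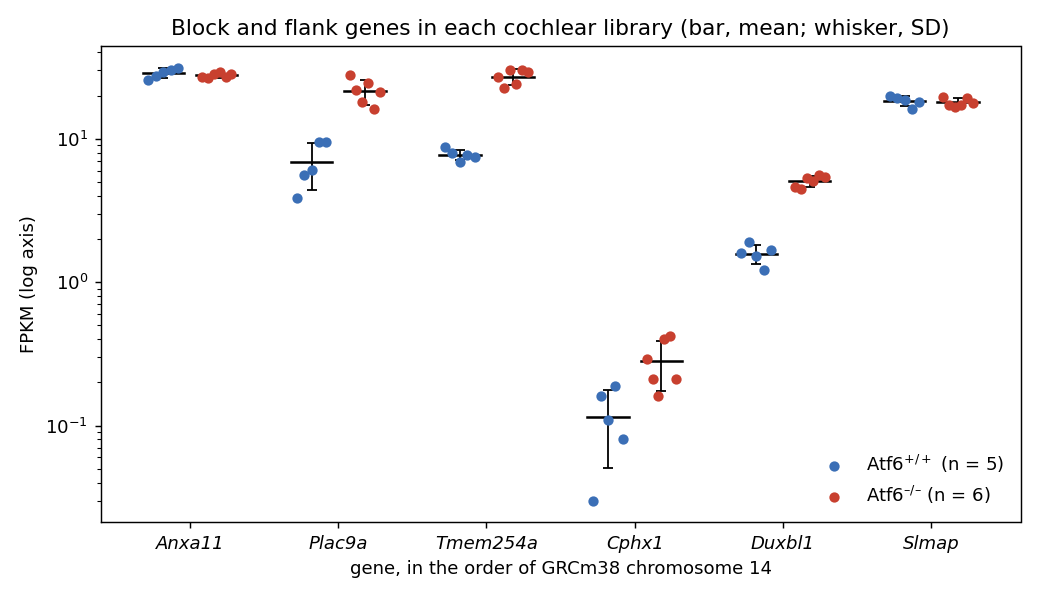
Each point is the FPKM of 1 gene in 1 library on a log axis, blue for *Atf6*+/+ (n = 5) and red for *Atf6*-/- (n = 6), with a bar at the mean and a whisker of 1 SD. *Tmem254a*, *Duxbl1* and *Plac9a* show separated groups, *Cphx1* shows overlapping groups between 0.03 and 0.42 FPKM, and the groups of *Anxa11* and *Slmap* coincide.

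Among the 4 block genes 3 thus had groups with no overlap, each higher in *Atf6*-/-. Of the 16169 genes tested, 104 (0.643%) had this pattern in the same direction and 202 (1.25%) in either direction; since the members were chosen by this contrast, nothing is read from that comparison. Ordered by fold change among 13611 genes that averaged 1 FPKM or more, *Tmem254a*, *Plac9a* and *Duxbl1* took places 4, 5 and 6, with *Slmap* at 8007 and *Anxa11* at 9076. In FPKM, which is per length, the order of the *Atf6*+/+ means was *Anxa11*, *Slmap*, *Tmem254a*, *Plac9a*, *Duxbl1* and *Cphx1*, and the values of *Tmem254a* and *Plac9a* overlapped. In *Atf6*-/- cochleae *Tmem254a* stood level with *Anxa11*, their values overlapping, *Slmap* lay below both, and *Plac9a* overlapped with all 3.

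The step was read in each library by dividing a gene by its own *Atf6*+/+ mean. *Tmem254a* lay between 0.895 and 1.12 times that mean in the *Atf6*+/+ libraries and between 2.89 and 3.92 times in the *Atf6*-/- libraries. For *Duxbl1* the ranges were 0.771 to 1.201 and 2.81 to 3.53, and for *Plac9a* 0.557 to 1.39 and 2.35 to 4.03. *Cphx1* ran from 0.263 to 1.67 in the *Atf6*+/+ libraries and from 1.404 to 3.68 in the *Atf6*-/- libraries. The step was thus present in all 6 *Atf6*-/- libraries for *Tmem254a*, *Duxbl1* and *Plac9a*, and absent from all 5 *Atf6*+/+ libraries. For *Anxa11* the *Atf6*-/- libraries ran from 0.914 to 1.02 times the *Atf6*+/+ mean, and for *Slmap* from 0.908 to 1.07 times.

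Ratios of 2 genes within a library do not depend on how libraries were scaled. *Tmem254a* over *Anxa11* was 0.271 ± 0.0428 (SD, n = 5) in *Atf6*+/+ cochleae and 0.981 ± 0.120 (SD, n = 6) in *Atf6*-/- cochleae. The highest *Atf6*+/+ ratio was 0.337 and the lowest *Atf6*-/- ratio 0.821. *Duxbl1* over *Slmap* was 0.0858 ± 0.00959 (SD, n = 5) and 0.283 ± 0.0313 (SD, n = 6), again with no overlap. Within the block the ratios overlapped. *Duxbl1* over *Tmem254a* was 0.205 ± 0.0326 (SD, n = 5) and 0.188 ± 0.0136 (SD, n = 6), and every *Atf6*-/- ratio lay inside the *Atf6*+/+ range of 0.159 to 0.238. *Plac9a* over *Tmem254a* was 0.906 ± 0.353 (SD, n = 5) and 0.813 ± 0.225 (SD, n = 6), again inside the *Atf6*+/+ range, which ran from 0.443 in replicate 1 to 1.26 in replicate 5. *Anxa11* over *Slmap* was 1.58 ± 0.239 (SD, n = 5) and 1.55 ± 0.148 (SD, n = 6).

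The 6 *Atf6*-/- libraries were not in the same order for each block gene. *Tmem254a* was highest in replicates 3 and 5, at 30.4 and 30.3 FPKM, and *Duxbl1* was highest in replicate 5, at 5.59 FPKM, while both were lowest in replicate 2, at 22.4 and 4.44 FPKM. *Plac9a* was highest in replicate 1, at 27.9 FPKM, and lowest in replicate 5, at 16.2 FPKM. *Cphx1* was highest in replicates 5 and 4, at 0.42 and 0.40 FPKM.

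Whether members varied together within a genotype was tested on their deviations from the genotype means. The members were chosen by a step between genotypes in each library, so the size of these deviations bore on the choice. The rule did not name covariation within a genotype. Over 11 libraries and 15 pairs, none had an adjusted p under 0.05 in the exact two-sided permutation test within genotypes, and 2 had an unadjusted p under 0.05. *Tmem254a* and *Duxbl1* had r = 0.48 (exact p = 0.109, adjusted p = 0.409) and rho = 0.50 (exact p = 0.125, adjusted p = 0.493), with r = 0.33 without the 2 libraries farthest from the median and r = 0.83 over the 6 *Atf6*-/- libraries alone. *Tmem254a* and *Plac9a* had r = -0.51 (exact p = 0.0771, adjusted p = 0.385) and rho = -0.65 (exact p = 0.0282, adjusted p = 0.360), with r = -0.45 without 2 libraries and r = -0.60 over *Atf6*-/- alone.

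The lowest unadjusted p-values in r belonged to pairs with *Anxa11*. *Anxa11* and *Slmap* had r = -0.66 (exact p = 0.0441, adjusted p = 0.347) and rho = -0.64 (exact p = 0.0480, adjusted p = 0.360), with r = -0.73 without 2 libraries and r = -0.54 over *Atf6*-/- alone. *Anxa11* and *Plac9a* had r = 0.72 (exact p = 0.0463, adjusted p = 0.347) and rho = 0.55 (exact p = 0.131, adjusted p = 0.493), with r = 0.57 without 2 libraries and r = 0.02 over *Atf6*-/- alone. Neither passed the correction, and the count of 2 pairs fell to 0 after median-of-ratios scaling and without *Atf6*+/+ replicates 1 or 2 or *Atf6*-/- replicates 4, 5 or 6, each left out alone.

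The genes around the block were tested, since the rule did not name them. Of the 10 nearest tested genes before *Anxa11* and the 10 after *Slmap*, none had a limma adjusted p under 0.05, where 11 of all 16169 genes did (0.068%). An unadjusted rule (limma, a threshold of 0.05 on the unadjusted p and of 0.05 on the absolute log2 fold change) called 2 of these 20, against 1592 of all genes (9.85%), so the share was near the background. None of the 20 had groups without overlap. Their log2 fold changes ran from -0.28 to 0.41 with a median of 0.08, against -0.01 over all genes.

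Both called neighbours lay before *Anxa11*. *Zmiz1*, a transcriptional coregulator, was at 29.8, 30.3, 28.6, 24.9 and 27.7 FPKM in *Atf6*+/+ replicates 1 to 5 and between 28.1 and 41.0 FPKM in the *Atf6*-/- libraries, with a median of 31.4. Its groups overlapped, with *Atf6*-/- replicates 5 and 6 the highest, and its log2 fold change was 0.23 (limma unadjusted p = 0.0327, adjusted p = 0.480). *Dlg5*, a scaffold protein of cell junctions, was at 6.91, 6.73, 6.03, 5.73 and 6.52 FPKM in *Atf6*+/+ replicates 1 to 5 and between 6.50 and 8.54 FPKM in the *Atf6*-/- libraries, with a median of 7.49. Its groups overlapped too, and its log2 fold change was 0.23 (limma unadjusted p = 0.0225, adjusted p = 0.455). The count of 2 went to 0 without *Atf6*+/+ replicate 4 or without *Atf6*-/- replicate 6, and to 5 after rescaling to TPM.

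The genes next to the flanks showed no step of the size seen in the block. *Zcchc24*, just before *Anxa11*, had a log2 fold change of 0.17 (limma unadjusted p = 0.0861), followed outwards by *Ppif*, the mitochondrial cyclophilin, with 0.09, and, past *Zmiz1*, the ribosomal protein gene *Rps24* with -0.14 and *Polr3a*, the largest subunit of RNA polymerase III, with -0.03. *Dennd6a*, just after *Slmap*, had -0.02, and *Arf4*, a small GTPase of membrane traffic, had 0.08. The fold changes of *Pde12*, *Appl1*, *Arhgef3*, *Tasor*, *Ccdc66* and *Erc2* lay between -0.01 and 0.08. *Il17rd* and *Wnt5a* had 0.25 and 0.13, and on the other side *Zfp503*, *Lrmda*, *Kcnma1* and *E330034G19Rik* had 0.13, -0.28, 0.06 and 0.41, and none of these was called. With 25 genes on each side, 4 of 50 were called. Over all tested genes of chromosome 14 other than the 6 members, these neighbours included, 59 of 580 were called, a share of 10.2% beside the 9.85% of all genes.

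**Figure D2:**
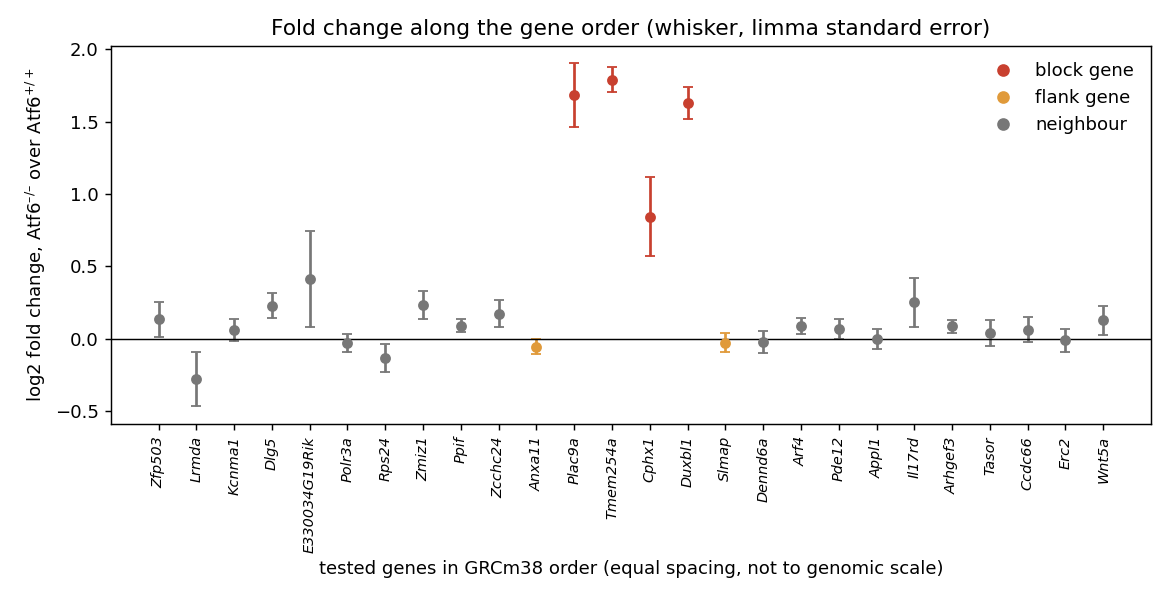
Points are log2 fold changes of *Atf6*-/- (n = 6) over *Atf6*+/+ (n = 5) with limma standard errors, for 26 tested genes in the gene order of GRCm38 at equal spacing. The 4 block genes in red lie between 0.84 and 1.79, the flanks in orange at -0.06 and -0.03, and the 20 neighbours in grey between -0.28 and 0.41.

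The block is 1 of 3 runs of the same gene families in the reference. Between *Anxa11* and *Slmap*, GRCm38 lists 12 genes of these 4 families, 3 of each: after *Plac9a*, *Tmem254a*, *Cphx1* and *Duxbl1* come *Gm9780*, *Tmem254c*, *Cphx2* and *Duxbl2*, and then *Plac9b*, *Tmem254b*, *Cphx3* and *Duxbl3*. These 8 further copies were not analysed here, and since the copies are so alike, the value of a member may hold reads of its 2 further copies. The authors aligned reads to GRCm39, in which the number of copies may differ and was not looked at here.

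How far single reads could tell the copies apart was measured on GENCODE M21 transcripts. The measure is the share of 100-base windows, the read length, that occur without mismatch in another gene. Windows were matched singly and on either strand, while the libraries were strand-specific and paired. The strand or the mate may thus place some reads that a shared window alone does not. For *Cphx1* all of 1550 windows were shared with both *Cphx2* and *Cphx3*. For *Plac9a* 99.7% of 1744 windows were shared with *Gm9780* or *Plac9b*, and 45.1% with both. For *Duxbl1* 85.8% of 4449 windows were shared, all of these with both copies. For *Tmem254a* 68.9% of 2252 windows were shared with *Tmem254b* or *Tmem254c*, and 56.6% with both. *Slmap* shared 0 of 6479 windows. *Anxa11* shared 22.02% of 2625 windows, with its antisense gene *Anxa11os* and with the transcribed pseudogenes *Gm2260* and *Gm2274*, which follow the first and the second run of the block in gene order. The values of the 4 block genes are uncertain in this respect: the authors counted with RSEM, which shares out by estimate the reads that fit several transcripts, the shares given to each copy were not analysed here, and a difference in 1 copy and a difference in how reads were assigned cannot be told apart.

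Promoters were read because 3 of the members moved together. RefSeq windows of 300 bases on GRCm38.p6, from 250 before the gene's start to 50 after it, matched *Plac9a*, *Tmem254a* (2 starts), *Cphx1*, *Anxa11*, *Slmap* and the copies *Gm9780*, *Plac9b*, *Tmem254b*, *Tmem254c*, *Cphx2* and *Cphx3*; *Duxbl1* was not matched. The copies were alike there as well. One *Tmem254a* window was identical to that of *Tmem254c* over all 300 bases, *Cphx1* shared an unbroken run of 296 bases with *Cphx2* and with *Cphx3*, and *Plac9a* one of 222 bases with *Gm9780* and with *Plac9b*.

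Motifs were searched on both strands in the 250 bases before each start, in 32851 windows. The ER stress response element (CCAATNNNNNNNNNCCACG) was in 0.113% of all windows, its second form (ATTGGNCCACG) in 0.0304%, the core of the unfolded protein response element (TGACGTGG) in 0.563%, the cAMP response element (TGACGTCA, which begins with the same 6 letters) in 1.55% and the composite site of C/EBP and ATF proteins (TGATGNAAT) in 0.816%. None of these letters were in the 4 windows of the block genes. The GC box (GGGCGG) was in 32.7% of all windows and in those of *Plac9a*, *Anxa11* and 1 start of *Tmem254a*, and TATAAA was in 12.4% and in that of *Cphx1*. A match is a string of letters and not a site, and its absence says nothing of the factor. The windows are printed because they hold the GC box or TATAAA and the runs shared with the copies; capitals mark the GC box and TATAAA on either strand. *Plac9a* is at chr14:25902894-25903143, *Tmem254a* at chr14:25927251-25927500, both on the minus strand, and *Cphx1* at chr14:25942294-25942543 on the plus strand, all on GRCm38.p6.
Plac9a: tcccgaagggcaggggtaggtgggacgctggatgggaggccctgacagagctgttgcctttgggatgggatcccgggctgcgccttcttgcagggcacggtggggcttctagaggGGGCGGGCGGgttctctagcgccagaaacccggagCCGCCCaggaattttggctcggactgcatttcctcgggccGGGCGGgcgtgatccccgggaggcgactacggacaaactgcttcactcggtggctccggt
Tmem254a: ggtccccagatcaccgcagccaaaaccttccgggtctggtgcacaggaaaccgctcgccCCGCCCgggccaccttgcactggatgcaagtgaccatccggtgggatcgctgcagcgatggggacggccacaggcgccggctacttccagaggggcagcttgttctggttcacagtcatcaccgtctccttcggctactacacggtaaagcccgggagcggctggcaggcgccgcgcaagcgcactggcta
Cphx1: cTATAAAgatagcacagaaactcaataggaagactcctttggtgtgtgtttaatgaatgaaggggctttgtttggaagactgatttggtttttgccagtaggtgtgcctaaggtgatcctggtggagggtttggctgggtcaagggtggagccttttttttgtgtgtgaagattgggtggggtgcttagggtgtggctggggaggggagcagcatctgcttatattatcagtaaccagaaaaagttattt

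The genes most like *Tmem254a* were taken by the Pearson r of log2(FPKM + 0.1) over all 11 libraries among genes averaging 1 FPKM or more, which uses the difference between genotypes and is a description. *Duxbl1* came first of 13610 genes with r = 0.98, and was the only gene of the first 10 on chromosome 14. *Ppm1h*, a protein phosphatase, followed with r = 0.95, with means of 8.67 ± 1.16 FPKM (SD, n = 5) in *Atf6*+/+ and 16.5 ± 1.64 (SD, n = 6) in *Atf6*-/- cochleae. *Atf5*, a transcription factor whose translation rises when eIF2α is phosphorylated, had r = 0.94, with means of 37.4 ± 4.66 (SD, n = 5) and 68.3 ± 5.06 FPKM (SD, n = 6). *Sec61a1*, the channel subunit of the ER translocon, had r = 0.93, with 49.6 ± 2.03 (SD, n = 5) and 59.2 ± 2.97 FPKM (SD, n = 6).

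The other like genes were *Snx29*, *Elk1*, *Slc33a1*, *Smox*, *Fgf21* and *Sidt1*, with r between 0.90 and 0.92. Among them *Fgf21*, a secreted hormone of the stress response, had the largest step, from 2.65 ± 2.09 (SD, n = 5) to 18.1 ± 1.76 FPKM (SD, n = 6). *Smox*, spermine oxidase, had a small one, from 47.3 ± 1.80 (SD, n = 5) to 53.5 ± 1.85 FPKM (SD, n = 6). *Plac9a* came at place 27 with r = 0.87, while *Anxa11* had r = -0.36 and *Slmap* r = -0.10. The gene least like *Tmem254a* was *Atf6* itself, with r = -0.96.

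Genes around the members by function were counted in 3 lists. Of the annexins other than *Anxa11*, 10 of 11 were listed in the tables and 9 were tested; with limma, 0 were called by the unadjusted rule and 0 had an adjusted p under 0.05, and their median log2 fold change was -0.07. The most abundant was *Anxa5*, at 225 FPKM over the libraries. Of the STRIPAK partners of *Slmap*, all 19 were tested and 1 was called, *Pdcd10*, a scaffold of germinal center kinases, which had a log2 fold change of -0.20 (limma unadjusted p = 0.00347, adjusted p = 0.362). *Pdcd10* was at 15.6 ± 1.04 FPKM (SD, n = 5) in *Atf6*+/+ and 13.5 ± 0.671 (SD, n = 6) in *Atf6*-/- cochleae, with overlapping groups. The median of the 19 was 0.01, and their most abundant gene, the scaffold subunit *Ppp2r1a*, averaged 231 FPKM.

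Few genes of the DUX program of the early embryo could be tested. Of 27 listed, 7 had values used here, of which 5 were under the filter and 2 were tested, and neither was called. *Duxf3* was between 0 and 0.02 FPKM in every library. Over the 3 lists, 1 of 30 tested genes was called by the unadjusted rule, against 9.85% of all genes, a count that ran from 1 to 4 when single libraries were left out and was highest without *Atf6*+/+ replicate 1.

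Markers of other cells moved with genotype as well. All 6 erythroid markers were lower in *Atf6*-/- by the unadjusted limma rule, with a median log2 fold change of -1.58 and none at an adjusted p under 0.05. Their summed FPKM had a lowest of 4821, a median of 14836 and a highest of 46387 in *Atf6*+/+ libraries, and 2869, 4929.6 and 9364 in *Atf6*-/- libraries, with *Hba-a1* the most abundant. Fewer cells of a type and less RNA per cell cannot be told apart in whole tissue. Of 8 neutrophil markers 3 were lower, *S100a8*, *S100a9* and *Ltf*, with summed medians of 555 and 255 FPKM and *S100a9* the most abundant.

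Called markers of the sensory and supporting cells were higher. Of 5 hair cell markers 2 were higher in *Atf6*-/-, *Slc26a5* and *Ocm*, with log2 fold changes of 1.197 and 1.16, and the summed FPKM lay between 32.7 and 106 in *Atf6*+/+ cochleae, and in *Atf6*-/- cochleae between 61.2 and 139. Without *Atf6*+/+ replicate 3, 4 or 5 or *Atf6*-/- replicate 1, 5 or 6, each left out alone, 1 of the 5 was called. *Fgfr3* was the 1 called of 4 supporting cell markers, *Kcnj10* the 1 of 4 for the stria vascularis and *Coch* the 1 of 3 for otic mesenchyme, all higher, with log2 fold changes of 0.59, 0.37 and 0.33. *Dcn* was the 1 of 6 for fibroblasts, lower, with -0.23. With the mean log2 value of the neutrophil, B cell and erythroid markers as a covariate, 0 markers were called for hair cells, for the stria vascularis and for otic mesenchyme. The stria vascularis count was 2 without *Atf6*-/- replicate 1. The otic mesenchyme count was 0 without *Atf6*+/+ replicate 3 or 4 or *Atf6*-/- replicate 1, 4, 5 or 6. It was also 0 with no filter and with replicate number as a block. It was 2 without *Atf6*+/+ replicate 2 or 5 or *Atf6*-/- replicate 2, and 2 after rescaling to TPM. The fibroblast count was 0 without *Atf6*+/+ replicate 1, 2, 4 or 5 or *Atf6*-/- replicate 2, 4, 5 or 6. It was also 0 after rescaling to TPM and with no filter. None of 5 bone and 5 tested skeletal muscle markers were called, and the muscle markers *Myod1* and *Pax7* were under the filter, with *Mylpf* the most abundant muscle marker at 1.85 FPKM. With replicate number as a block, 1 of the 5 bone markers was called. Without *Atf6*-/- replicate 3 alone, 3 of the 5 muscle markers were called, and without *Atf6*+/+ replicate 3 or 4 alone, 0 of the 8 neutrophil markers; these were 1 without *Atf6*-/- replicate 1 or 5 and 5 without *Atf6*+/+ replicate 5 or *Atf6*-/- replicate 4. No marker of the 10 cell types was at 0 in every library. In all, 17 of 51 tested markers were called, where 9.85% of all genes were, 10 of 51 without *Atf6*+/+ replicate 3 or without *Atf6*+/+ replicate 4, and 11 without *Atf6*-/- replicate 5. As a description, the mean log2 fold change of the 4 block genes was 1.48 with the covariate named above and 1.49 without it; the part of these markers in the block's difference was not tested.

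Within genotypes, members were also set against the 10 cell type scores, each the mean log2 value of its markers, in 60 relations added after the values were seen. None had an adjusted p under 0.05 in r by the exact permutation test within genotypes, and 9 had an unadjusted p under 0.05. *Anxa11* followed the bone score most closely, with r = 0.93 (exact p = 0.000891, adjusted p = 0.0535) and rho = 0.92 (exact p = 0.000833, adjusted p = 0.05) over 11 libraries, r = 0.91 without the 2 farthest libraries and r = 0.62 after rescaling to TPM. With *Atf6*+/+ replicate 1 or 2 or *Atf6*-/- replicate 3 or 6 left out alone, the adjusted p of that relation was under 0.05 (r = 0.98, 0.93, 0.93 and 0.94), and without *Atf6*+/+ replicate 2 so was that of 1 further relation. *Anxa11* and the fibroblast score had r = 0.86 (exact p = 0.00381, adjusted p = 0.0799) and rho = 0.85 (exact p = 0.00591, adjusted p = 0.177), with r = 0.74 without 2 libraries. *Duxbl1* and the stria vascularis score had r = 0.86 (exact p = 0.00458, adjusted p = 0.0799) and rho = 0.78 (exact p = 0.00966, adjusted p = 0.192), with r = 0.56 without 2 libraries, 1 of them *Atf6*+/+ replicate 4, in which that score was lowest. *Tmem254a* and the hair cell score had r = 0.67 (exact p = 0.00666, adjusted p = 0.0799) and rho = 0.62 (exact p = 0.0319, adjusted p = 0.273), with r = 0.53 without 2 libraries. *Tmem254a* and the supporting cell score had r = 0.58 (exact p = 0.00612, adjusted p = 0.0799) and rho = 0.45 (exact p = 0.111, adjusted p = 0.516), with r = 0.60 without 2 libraries.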

How the data were processed

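The deposited FPKM values of 5 *Atf6*+/+ and 6 *Atf6*-/- cochlear libraries were used as the authors gave them, with 2 decimals; 0 per-sample columns were not used. Per the submitters' processing notes, reads were aligned with HISAT2 2.0.4 to GRCm39, quantified with RSEM 1.2.12 (another RSEM version is stated in the methods) and tested with DESeq2 1.4.5. Reads were paired and 100 bases long. The counting error of each value was not estimated, as no read counts were used.

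Values were tested as log2(FPKM + 0.1) for genes averaging 0.1 FPKM or more. The model, fitted in limma (version 3.58.1, under R 4.3.3), had a trend of variance on mean and genotype as the only term; tests were two-sided and adjusted over all genes by Benjamini-Hochberg, and the same code was tested on simulated data. The unadjusted rule follows the study's threshold. Deviations from genotype means were correlated with exact permutation within genotypes (86400 arrangements), adjusted over 15 pairs or 60 relations. Further steps ran in Python 3.11.15 (scipy 1.17.1, numpy 2.4.6, pandas 2.3.3; plots, matplotlib 3.10.9). Gene order and names came from RefSeq on GRCm38, to which 18534 of 18667 gene identifiers matched, and no coordinates were taken from it; promoter windows were those of RefSeq on GRCm38.p6.

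The members and lists were chosen with earlier results of these data known. Genes named were the 6 members, *Atf6*, 10 neighbours on each side, the 10 genes most like *Tmem254a*, and in each list its most abundant gene and those called by the unadjusted rule. Alternatives were other pseudocounts, filters and scalings, a replicate block, a marrow score and leaving out each library.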

Additional observations from a re-analysis of the deposited data

Results flagged for a closer look

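Single libraries far from the rest of their genotype were looked for in 114 groups of 5 or 6 libraries, covering the members, *Atf6*, the genes most like *Tmem254a*, the neighbours, ratios and summed lists. A library was singled out when its gap to the nearest other, over the range of the group, was above Dixon's critical value for that number of libraries. Chance alone singles out about 1 in 20 groups, and 5 were found. None of the 5 was a member of the block, a flank or a ratio of members.

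*Snx29*, among the genes most like *Tmem254a*, was at 4.54 FPKM in *Atf6*+/+ replicate 2, with the others between 3.75 and 3.96 FPKM. *Erc2*, a neighbour after *Slmap*, was at 3.60 FPKM in *Atf6*+/+ replicate 5, with the others between 4.48 and 4.77 FPKM. Skeletal muscle markers summed to 35.4 FPKM in *Atf6*-/- replicate 3 and to between 1.39 and 2.68 FPKM in the others. Neutrophil markers summed to 1227 FPKM in *Atf6*-/- replicate 4 and to between 90.5 and 349 FPKM in the others. Erythroid markers summed to 46387 FPKM in *Atf6*+/+ replicate 5 and to between 4821 and 16091 FPKM in the others.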

How the results depend on the processing

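The mean log2 fold change of the 4 block genes was positive under all 19 alternatives, 17 of which moved it by less than 1 SD between libraries. It was 1.17 with a pseudocount of 1, and 1.70 with a mean of at least 1 FPKM, which leaves 3 of the 4 genes without *Cphx1*. With single libraries left out it ran from 1.41 to 1.53. The flank mean was 0.014 after TPM rescaling and otherwise between -0.06 and -0.03 with single libraries left out. Of 113 alternative values of single members 110 moved by less than 1 SD and none changed sign beyond it. The 8 further copies were not analysed here, so their comparison and the sum of each member with its copies could not be run.

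The replicate block used numbers that the genotypes share. Same-numbered libraries had correlations of their deviations between -0.21 and 0.12. A low correlation over all genes cannot decide whether such libraries share a litter or a batch, and the labels give only the number. *Atf6*-/- replicate 6 has no partner in the block, which gives the fold changes found without that library. Under the block 4 genes had an adjusted p under 0.05, 1 neighbour was called and 3 genes in the function lists were; without *Atf6*-/- replicate 6 and with no block these were 9, 0 and 2, and with all libraries 11, 2 and 1. With the marrow score 6 genes had an adjusted p under 0.05, 860 instead of 1592 were called unadjusted, and 1 neighbour, 2 genes of the function lists and 5 cell type markers were called. Erythroid, B cell and neutrophil markers make up that score and are also counted among the cell type markers. Their calls, which went from 6 to 0, 2 to 1 and 3 to 2, cannot test them, since the fit removes their shared part by construction. Hair cell, stria vascularis and otic mesenchyme markers are not in the score, and their calls went from 2, 1 and 1 to 0. After TPM rescaling 5 neighbours and 2 genes of the function lists were called, and 75.2% of all unadjusted calls were higher in *Atf6*-/-, against 45.5%. With 25 genes on each side 4 neighbours were called.

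With single libraries left out, neighbours called ran from 0 to 3, genes with an adjusted p under 0.05 from 8 to 13, genes with groups that did not overlap from 246 to 372 (main 202), unadjusted calls from 1196 to 1865, function list calls from 1 to 4, cell type markers from 10 to 19, and member pairs with an unadjusted p under 0.05 from 0 to 2. The last count was 1 with a pseudocount of 1 and after TPM rescaling, and 0 after median-of-ratios scaling. The cause of these changes was not tested.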
